A study of Mus musculus with 43 samples.

Results

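The thrombospondins and the ADAMTS proteases were followed through 15 groups of fetal and newborn mouse gonads. The set held 9 genes, Thbs1, Thbs2, Adamts1, Adamts2, Adamts5, Adamts8, Adamts9, Adamts16 and Adamts19, out of 18184 genes read on the arrays. They were chosen by family and by the opposite directions in which members differed when Foxl2 was absent, so every difference between ovaries without and with Foxl2 is given here as a description, with no test. Of the 9 genes, 8 had at least 1 probe set named for them alone, 17 probe sets in all, and Adamts2 had none and was not read.

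Thrombospondins are secreted glycoproteins of the extracellular matrix. Thbs1 and Thbs2 bind cells through CD47, CD36 and integrins and are known as inhibitors of angiogenesis, and Thbs1 can activate latent TGF-beta. ADAMTS proteases are secreted metalloproteases that carry thrombospondin repeats. Adamts1, Adamts5, Adamts8 and Adamts9 belong to the group that can cut proteoglycans such as versican and aggrecan, Adamts2 removes the N-propeptide of procollagen, and the substrates of Adamts16 and Adamts19 are less well defined. In the adult ovary, Adamts1 is known for its part in ovulation, where it cuts versican of the cumulus matrix.

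Each array measured the whole gonads of 1 mouse on Affymetrix MOE430 v.2. The Foxl2-null ovaries (Foxl2-/-) were taken at embryonic days 13 and 16 (E13, E16) and at birth (P0), against E13 ovaries labelled Foxl2+/-, for which the methods instead name wild-type littermates, and against E16 and P0 ovaries with no mutation in their labels. Double nulls (Wnt4-/- Foxl2-/-, P0) were set against Wnt4-null ovaries, and double mutants (KitWvWv Foxl2-/-, P0) against KitWvWv ovaries. Both of these single mutants carried only 1 intact Foxl2 copy (Foxl2+/-) by their labels, and the Wv allele of Kit is hypomorphic and depletes germ cells. The remaining groups were Foxl2+/- ovaries at E16, Wnt4 knockout ovaries at E15 with Wnt4+/- ovaries of the same age, and testes at E13 and P0. By the methods the P0 testes came from Wnt4-null mice, so testis and loss of Wnt4 cannot be told apart in any comparison with them. The E15 mice came from another mixture of strains than all other mice. There were 2 arrays in each E15 group and 3 in every other. Since whole organs were measured, fewer cells of a type and less RNA per cell cannot be told apart in any value below.

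A signal is an intensity divided by the mean of its array, which was the same on every array. Probe sets were ranked by mean signal only to choose the one read for a gene and to tell dim from bright ones. Levels of different genes are not otherwise compared, and sums of marker signals are compared only between groups. A difference is a log2 difference between group means, after a pseudocount of 1% of the array mean. Its standard error (SE) comes from 1 fit over all 43 arrays. A gene was read from its probe set of highest mean. In the comparisons that did not choose the genes, a gene was called where limma's adjusted p was under 0.05, and "rose" and "fell" are used of those calls only. In the 5 comparisons for loss of Foxl2, the text says instead whether the arrays of both groups overlap. Several comparisons share arrays: the wild-type P0 ovaries served in 7 of them, and the E16 and E13 ovaries in several more, so their values are not independent of each other.

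Foxl2 itself had signals of 0.606 to 1.23 in Foxl2-null ovaries at E13, 2.03 to 2.77 at E16 and 1.36 to 2.42 at P0, of 0.682 to 0.826 in the Wnt4 Foxl2 double nulls and of 3.56 to 7.64 in the Kit Foxl2 double mutants. Every one of these lay below all arrays of its reference. Wnt4 in the Wnt4-null ovaries averaged 0.386 at E15 and 0.263 at P0, against 1.16 in control and 0.684 in wild-type ovaries. Arrays of one group correlated at 0.922 to 0.982, and the Foxl2-null ovaries of E13 had the widest spread around their group means, with residual SDs of 0.390 to 0.555 on the log2 scale. Markers of the supporting cells of the fetal ovary (6 genes, among them Fst and Irx3) summed to signals of 1.80 to 1.96 in E13 testes and 16.7 to 20.6 in E13 ovaries, as their labels say, and markers of Sertoli cells (6 genes, among them Sox9 and Amh) to 17.97 to 25.1 in E13 testes and 1.13 to 1.56 in E13 ovaries.

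The stretch before the annotated start of a gene is shown for 2 of the members read, because Foxl2 is a forkhead protein and these are the sequences in which its motif was looked for. The sequence table used here, from RefSeq (GRCm38.p6), matched 4 of the 9 members, Thbs2, Adamts1, Adamts2 and Adamts9. Each sequence below is the 250 bases before the start, 5′ to 3′ on the gene's strand, with matches to TATAAA, the core of a TATA box, on either strand in capitals.
Thbs2 (chr17:14694263-14694512, minus strand): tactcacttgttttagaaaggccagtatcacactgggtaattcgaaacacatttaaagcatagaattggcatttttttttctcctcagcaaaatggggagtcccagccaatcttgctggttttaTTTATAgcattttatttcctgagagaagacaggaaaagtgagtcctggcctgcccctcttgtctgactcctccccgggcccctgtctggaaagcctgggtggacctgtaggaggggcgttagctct
Adamts1 (chr16:85803114-85803363, minus strand): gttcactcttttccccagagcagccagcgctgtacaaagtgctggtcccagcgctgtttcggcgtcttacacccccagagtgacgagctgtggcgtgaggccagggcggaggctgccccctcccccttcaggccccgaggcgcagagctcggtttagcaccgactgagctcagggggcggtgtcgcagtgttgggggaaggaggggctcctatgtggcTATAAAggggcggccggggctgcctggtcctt
None of the 4 windows held the forkhead motif TAAACA or its longer form GTAAACA on either strand. The Adamts9 window, which is not shown, lies inside the annotated span of that gene and not before it. TAAACA was present in 12% of all 32851 windows of this length and GTAAACA, which contains it, in 3.17%, so the absence of these letters from a window was the usual case. TATAAA was present in 12.4% of windows. The Adamts1 window held it at position -32 from the start, and the Thbs2 window held it at position -126 on the other strand. The windows shown differed in base composition, with 46.8% G and C for Thbs2 and 65.6% for Adamts1, against a median of 52.4% over all windows.

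Without Foxl2, both thrombospondins had lower signals in most comparisons, Adamts16 had lower and Adamts8 higher ones. Adamts8 was higher in all 5 comparisons and Adamts16 lower in all 5, with no overlap between arrays in any of them. Thbs2 was lower in 4 comparisons and Thbs1 in 4, but they were not the same 4. Adamts1 overlapped in all 5. Over all genes read, 4.99% were higher and 6.16% lower without overlap at E13, 7.52% and 8.96% at E16, 5.37% and 7.18% at P0, 10.4% and 7.47% in the Wnt4-null background, and 4.51% and 6.58% in the Kit mutant background. Among the 8 members, 1 was higher and 2 lower at E13, 1 and 4 at E16, 1 and 4 at P0, 2 and 2 in the Wnt4-null background, and 1 and 3 in the Kit mutant background. These contrasts chose the members, and nothing is read from these counts. Without control array 3 at E13, 6 members no longer overlapped instead of 3, and without Kit Foxl2 double mutant array 3, 7 instead of 4. Fewer arrays in a group leave less room for overlap in any gene. The share of all genes was not computed with an array left out, so nothing is read from these counts either.

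**Figure D1:**
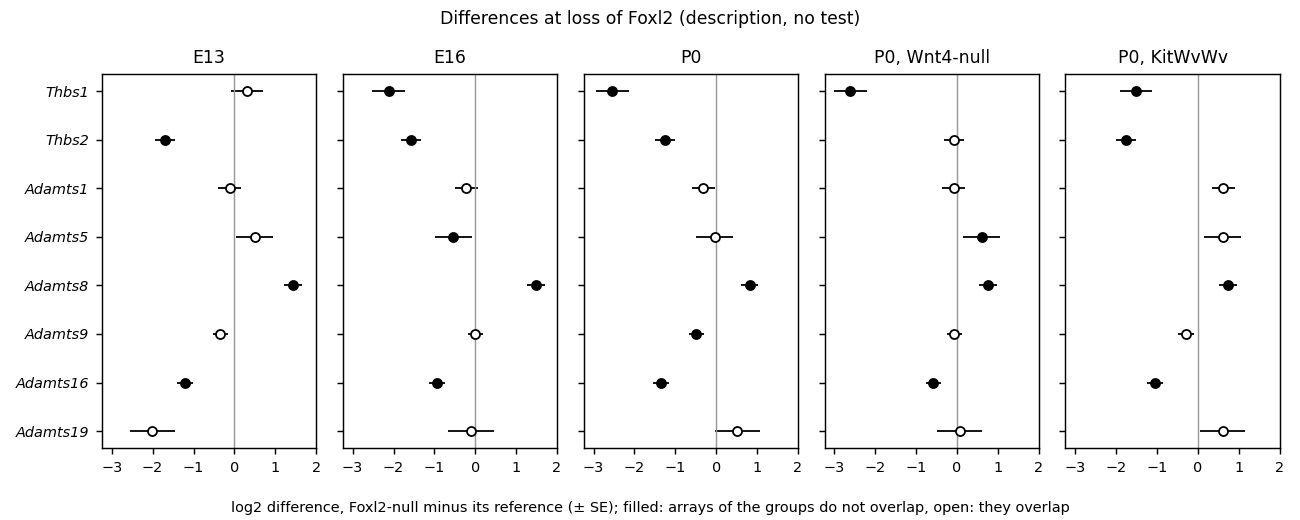
Log2 difference (± SE) of each of the 8 members read, Foxl2-null minus its reference, in 5 comparisons of 3 against 3 arrays, with filled points where the arrays do not overlap. Adamts8 lies right of 0 and Adamts16 left of 0 in every panel, and Thbs2 lies at -0.07 only in the Wnt4-null background.

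Thbs2 was lower at every stage. At E13 it had signals of 0.408, 0.538 and 0.531 in Foxl2-null ovaries, against 1.18, 1.68 and 2.08 in control ovaries. The highest null array was below the lowest control, and the difference was -1.70 ± 0.25, a 3.24-fold lower level. At E16 the signals were 1.56, 1.10 and 1.38 in Foxl2-null ovaries, against 4.23, 4.65 and 3.22 in wild-type ovaries (-1.57 ± 0.25). At P0 they were 0.645, 1.25 and 0.814 in Foxl2-null ovaries, against 2.53, 1.59 and 2.25 in wild-type ovaries (-1.25 ± 0.25). All 3 Thbs2 probe sets were lower without overlap at each of these stages, with differences of -1.70 to -1.25.

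In the compound mutants Thbs2 split. It had signals of 1.53, 0.927 and 0.864 in Kit Foxl2 double mutants, against 3.10, 3.87 and 4.09 in Kit mutants, a difference of -1.76 ± 0.25. In Wnt4 Foxl2 double nulls it had 1.71, 3.07 and 3.33, against 2.27, 2.75 and 3.22 in Wnt4-null ovaries, and these arrays overlapped (-0.07 ± 0.25). The other Thbs2 probe sets gave 0.26 ± 0.29 and 0.07 ± 0.33 in the Wnt4-null background, also with overlap. Whether the Wnt4-null background changed the difference was not tested, since these contrasts chose the gene.

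Thbs1 showed no separation at E13, where signals were 0.124, 0.194 and 0.103 in Foxl2-null ovaries and 0.0782, 0.0984 and 0.161 in control ovaries (0.31 ± 0.40). At E16 it had signals of 0.149, 0.195 and 0.0848 in Foxl2-null ovaries, against 0.578, 0.623 and 0.676 in wild-type ovaries, a difference of -2.12 ± 0.40. At P0 the signals were 0.159, 0.410 and 0.471 in Foxl2-null ovaries, against 2.18, 1.32 and 2.28 in wild-type ovaries (-2.54 ± 0.40). The level with Foxl2 present was thus far higher at P0 than at E13, while the Foxl2-null ovaries of E13, E16 and P0 lay at or under 0.471. In Wnt4 Foxl2 double nulls Thbs1 had 0.245, 0.239 and 0.219, against 1.61, 1.21 and 1.67 in Wnt4-null ovaries (-2.61 ± 0.40), so that Thbs1 kept apart in the background in which Thbs2 overlapped. In Kit Foxl2 double mutants it had 0.995, 0.553 and 0.407, against 1.21, 2.81 and 1.62 in Kit mutants (-1.52 ± 0.40). The second Thbs1 probe set was lower without overlap in the same 4 comparisons, with differences of -2.89 to -1.92.

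**Figure D2:**
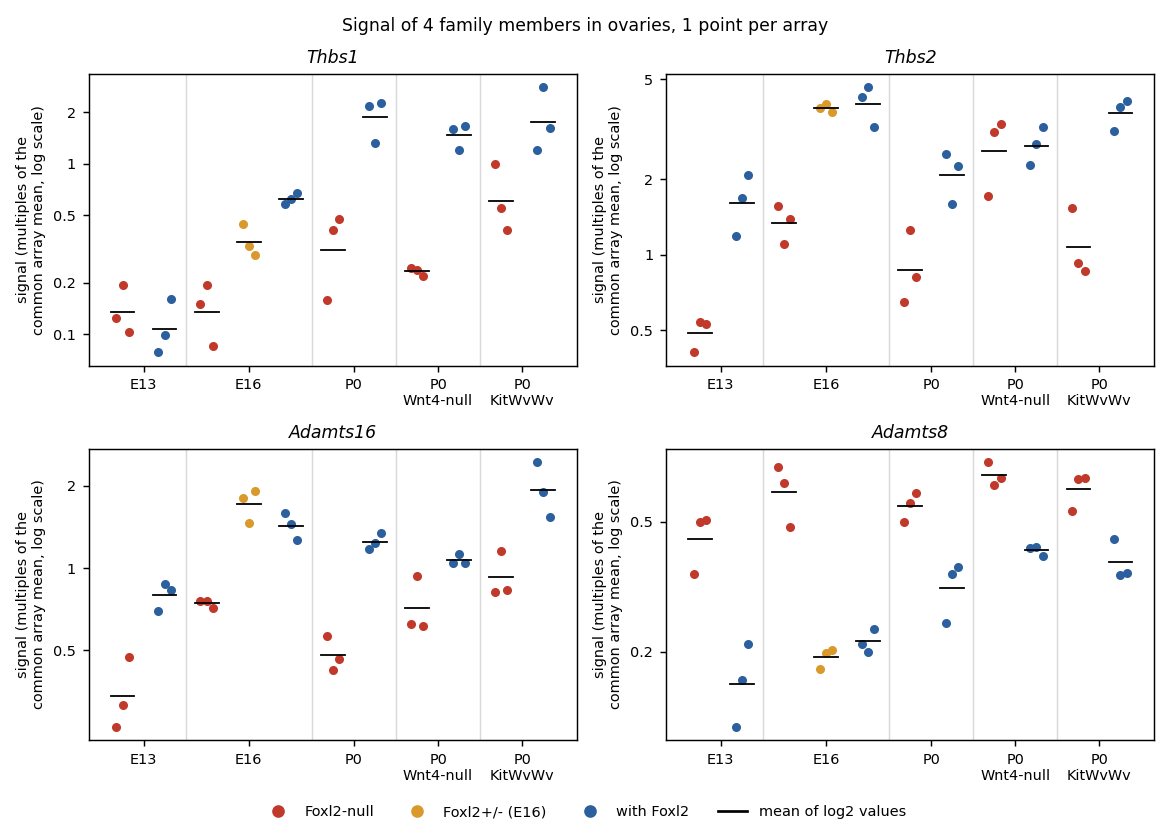
Signal of Thbs1, Thbs2, Adamts16 and Adamts8 (multiples of the common array mean, log axis) in ovaries without Foxl2 (red), with 1 Foxl2 copy at E16 (yellow) and in the reference of each comparison (blue), 1 point per array and a bar at the mean of log2 values. Adamts8 has all null arrays above their reference in each of the 5 comparisons, and Adamts16 has all below. Thbs1 at E16 has its heterozygous arrays between both other groups.

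Adamts8 ran the other way. At E13 it had signals of 0.347, 0.500 and 0.505 in Foxl2-null ovaries, against 0.117, 0.164 and 0.211 in control ovaries, a difference of 1.42 ± 0.22. At E16 it had 0.739, 0.657 and 0.483 in Foxl2-null ovaries, against 0.212, 0.200 and 0.234 in wild-type ovaries (1.48 ± 0.22). At P0 it had 0.499, 0.571 and 0.613 in Foxl2-null ovaries, against 0.245, 0.345 and 0.363 in wild-type ovaries (0.82 ± 0.22). The double nulls had 0.764, 0.651 and 0.682, against 0.416, 0.420 and 0.393 in Wnt4-null ovaries (0.75 ± 0.22). The Kit Foxl2 double mutants had 0.540, 0.676 and 0.682, against 0.443, 0.343 and 0.349 in Kit mutants (0.73 ± 0.22). The null groups therefore lay between 0.347 and 0.764 at every stage, and the smaller differences at P0 stood beside higher signals in the ovaries with Foxl2. Adamts8 has a single probe set, so no second reading was at hand.

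Adamts16 was read by 2 probe sets that disagreed. The brighter one had signals of 0.262, 0.316 and 0.472 in Foxl2-null ovaries at E13, against 0.695, 0.876 and 0.833 in control ovaries (-1.21 ± 0.19). At E16 it had 0.757, 0.757 and 0.714 in Foxl2-null ovaries, against 1.59, 1.45 and 1.27 in wild-type ovaries (-0.94 ± 0.19). At P0 it had 0.565, 0.425 and 0.466 in Foxl2-null ovaries, against 1.17, 1.24 and 1.35 in wild-type ovaries (-1.36 ± 0.19). In the compound mutants the differences were -0.58 ± 0.19 in the Wnt4-null and -1.05 ± 0.19 in the Kit mutant background, again without overlap. The dimmer probe set never exceeded 0.0700 on any of the 43 arrays, averaged 0.0371 and gave 0.63 ± 0.40, -0.06 ± 0.40, 0.59 ± 0.40, 0.47 ± 0.40 and 0.29 ± 0.40 in the 5 comparisons. Its arrays overlapped in 4 of them and were higher without overlap in the Wnt4-null background, against the direction of the brighter one. There its signals were 0.0221 to 0.0453 in double nulls and 0.0170 to 0.0218 in Wnt4-null ovaries, close to the pseudocount of 0.01. Only 11.1% of all probe sets had a lower mean, so its readings are near the floor. Over all 43 arrays the 2 probe sets correlated at r = -0.130, which is a description over arrays of all groups. For comparison, the second probe sets of Thbs1, Thbs2 and Adamts5 followed the first with r of 0.859 to 0.958, and those of Adamts9 with r of 0.691 and 0.706. Which transcripts the 2 Adamts16 probe sets read was not examined here, and the values below are those of the brighter one.

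**Figure D3:**
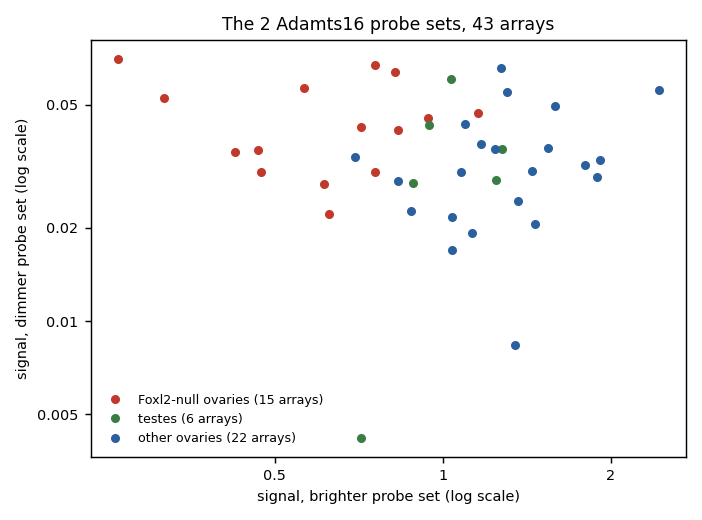
Signals of both Adamts16 probe sets on each of the 43 arrays, both axes logarithmic and in multiples of the common array mean, coloured by Foxl2-null ovaries, testes and other ovaries. The dimmer probe set stays at or under 0.0700 throughout, and Foxl2-null ovaries are shifted left on the brighter one with no matching shift on the dimmer one.

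The other members differed less or in single comparisons. Adamts19 averaged 0.0254 in Foxl2-null ovaries at E13 and 0.117 in control ovaries (-2.01 ± 0.55), but the arrays overlapped, and 1 null array was at 7.53e-06, far under the pseudocount of 0.01, so that this difference depends on the pseudocount. Adamts9, with 1.15, 1.10 and 1.49 in Foxl2-null ovaries at P0 and 1.56, 1.69 and 1.98 in wild-type ovaries, was lower without overlap at that stage only (-0.49 ± 0.19). A second Adamts9 probe set was also lower without overlap at P0 only (-0.46 ± 0.30), whereas the third was lower without overlap at E13 only, with 0.0681, 0.116 and 0.103 in Foxl2-null ovaries and 0.241, 0.166 and 0.118 in control ovaries (-0.78 ± 0.29). Adamts5 was lower without overlap at E16 (-0.53 ± 0.45) and higher without overlap in the Wnt4-null background (0.60 ± 0.45), in both cases by little more than its standard error. Of its 3 other probe sets, 1 was lower without overlap at E16 (-1.30 ± 0.67) and another higher without overlap in the Wnt4-null background (0.27 ± 0.43), and all their other differences, -1.002 to 0.69, came with overlap. Adamts1 overlapped in each of the 5 comparisons, with differences of -0.32 to 0.62.

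Other cell types moved in some of the same comparisons. At E16, red cell markers summed to signals of 6.72 to 20.1 in Foxl2-null ovaries and 1.05 to 1.56 in wild-type ovaries, with 3 of 4 genes higher without overlap, and smooth muscle and pericyte markers to 5.29 to 5.56 and 3.94 to 4.48, with 3 of 6 higher. Sertoli cell markers at E16 summed to 1.82 to 2.83 in Foxl2-null ovaries and 1.61 to 1.96 in wild-type ovaries, with 3 of 6 higher and 1 lower. At P0 Sertoli cell markers summed to 2.44 to 3.93 in Foxl2-null ovaries and 2.08 to 2.48 in wild-type ovaries. Fetal ovary supporting cell markers summed to 17.9 to 24.5 and 14.8 to 17.1, and each list had 2 of 6 higher and 1 lower. Steroidogenic markers summed to 1.46 to 1.93 and 2.41 to 3.25, with 1 of 5 higher and 1 lower. Endothelial markers summed to 5.79 to 6.80 and 4.25 to 5.71, with 1 of 6 higher. In the Wnt4-null background, Sertoli cell markers summed to 16.4 to 17.2 in double nulls and 5.56 to 6.82 in Wnt4-null ovaries, with 5 of 6 higher. Fetal ovary supporting cell markers there summed to 2.44 to 6.07 in double nulls and 6.78 to 9.26 in Wnt4-null ovaries, with 4 of 6 lower, and smooth muscle markers to 8.76 to 12.1 and 5.94 to 8.06, with 3 of 6 higher. In the Kit mutant background, oocyte markers summed to 0.618 to 1.28 in double mutants and 2.08 to 27.9 in Kit mutants, with 3 of 6 lower. Steroidogenic markers there summed to 1.47 to 1.58 in double mutants and 3.40 to 3.94 in Kit mutants, with 1 of 5 higher and 1 lower. Macrophage markers summed to 3.40 to 4.85 and 2.96 to 3.29, with 1 of 6 higher. Mesonephros markers summed to 0.896 to 1.46 and 0.515 to 0.684, with 2 of 3 higher. At E13, 1 of 6 Sertoli cell markers was higher and 1 of 2 adrenal cortex markers lower without overlap, and germ cell markers summed to 6.14 to 10.1 in Foxl2-null ovaries and 7.36 to 17.1 in control ovaries. None of the markers of these lists was under the pseudocount on every array of a group at E16 or among the Wnt4 mutants of P0. Their part in the values of the 8 members was not tested.

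Losing a single copy of Foxl2 was examined at E16, where heterozygous ovaries were set against wild-type ones. Foxl2 averaged 13.2 in heterozygous and 15.6 in wild-type ovaries. Thbs1 had signals of 0.445, 0.328 and 0.290 in heterozygous ovaries, against 0.578, 0.623 and 0.676 in wild-type ovaries, with no overlap, and its second probe set had 0.443, 0.248 and 0.320 against 0.504, 0.543 and 0.701. On both probe sets the heterozygous arrays also lay above all E16 null arrays. The difference of -0.82 ± 0.40 was not called (limma, adjusted p = 0.883), and 0 of 8 members were, with Thbs1 the only one at an unadjusted p under 0.05, as were 5.61% of all genes. In this comparison 0.0055% of all genes rose and 0% fell. Thbs2 differed by -0.06 ± 0.25 with a 95% interval of -0.55 to 0.44, Adamts8 by -0.16 ± 0.22 and Adamts16 by 0.26 ± 0.19, all with overlap. Adamts5 and Adamts19 were lower in the heterozygous ovaries without overlap and not called (-0.41 ± 0.45 and -0.71 ± 0.55). The share of all genes without overlap was not computed for this comparison, so nothing is read from how many members separated. Red cell markers summed to 1.502 to 20.8 in heterozygous and 1.05 to 1.56 in wild-type ovaries, and their part was not tested. The E16 wild-type arrays are the same that served for the null ovaries.

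Loss of Wnt4 was accompanied by higher Adamts1, Adamts5 and Adamts9. At P0 these 3 of 8 members rose in Wnt4-null against wild-type ovaries and 0 fell, where 7.07% of all genes rose and 9.87% fell. Adamts5 had signals of 2.82, 2.70 and 2.46 in Wnt4-null ovaries, against 0.451, 0.125 and 0.252 in wild-type ovaries. Every Wnt4-null array was above all wild-type arrays, and the difference was 3.39 ± 0.45 (10.5-fold, adjusted p = 1.59e-06), and all 4 Adamts5 probe sets rose, by 3.21 to 3.89. Adamts1 had 8.51, 6.51 and 7.95 in Wnt4-null ovaries, against 3.39, 1.95 and 1.64 in wild-type ovaries (1.78 ± 0.28, adjusted p = 2.44e-05). Adamts9 had 2.85, 3.17 and 2.34 in Wnt4-null ovaries, against 1.56, 1.69 and 1.98 in wild-type ovaries (0.67 ± 0.19, adjusted p = 0.0126). Its call was lost when wild-type array 1 or 2 or Wnt4-null array 1 or 2 was left out (adjusted p of 0.0501 to 0.0794), and its other probe sets gave 0.17 ± 0.30 and 0.71 ± 0.29, neither called.

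**Figure D4:**
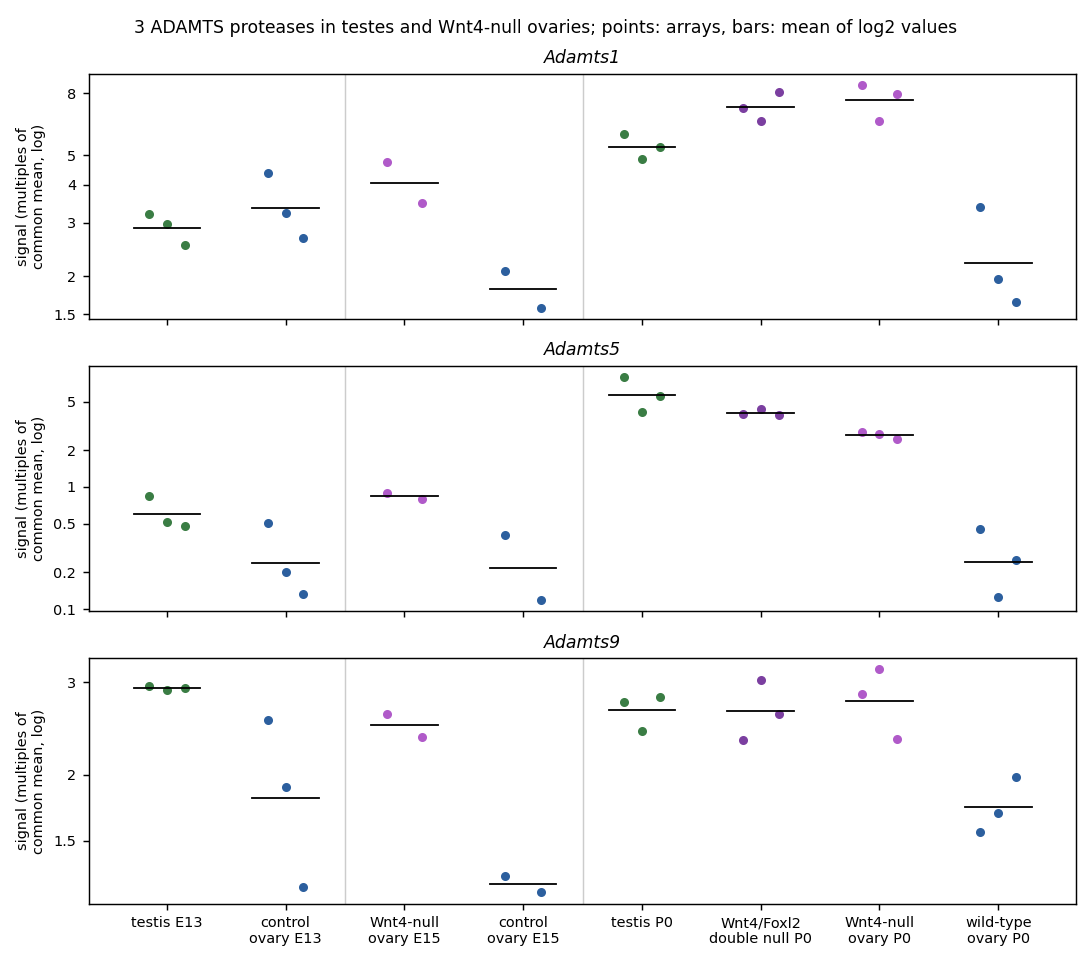
Signals of Adamts1, Adamts5 and Adamts9 (multiples of the common array mean, log axis) at E13, E15 and P0, 1 point per array and a bar at the mean of log2 values, with each mutant or testis group left of its reference. Adamts5 lies at 2.46 to 7.89 in the testes, double nulls and Wnt4-null ovaries of P0 and at 0.125 to 0.451 in wild-type ovaries.

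The Wnt4-null ovaries of P0 also lacked 1 copy of Foxl2, which cannot be told apart from loss of Wnt4 here, and their Foxl2 signals were 5.13, 5.35 and 5.90, against 16.8, 14.6 and 16.4 in wild-type ovaries. The thrombospondins were not called in this comparison. Thbs1 averaged 1.496 in Wnt4-null and 1.93 in wild-type ovaries (-0.34 ± 0.40, 95% interval -1.14 to 0.47), and Thbs2 averaged 2.75 and 2.12 (0.38 ± 0.25, 95% interval -0.12 to 0.88). Stroma markers moved in the same comparison: 3 of 5 rose (Pdgfra, Tcf21 and Dcn), and their sum was 30.5 to 32.4 in Wnt4-null and 9.31 to 13.8 in wild-type ovaries. Both adrenal cortex markers, Cyp21a1 and Cyp11b1, rose, with sums of 2.66 to 6.02 and 0.0216 to 0.157, and 6 of 6 oocyte markers fell, with sums of 7.11 to 15.98 and 35.8 to 82.2. Steroidogenic markers (4 of 5 rose) summed to 9.77 to 19.9 in Wnt4-null and 2.41 to 3.25 in wild-type ovaries, Sertoli cell markers (2 of 6 rose) to 5.56 to 6.82 and 2.08 to 2.48, and fetal ovary supporting cell markers (4 of 6 fell) to 6.78 to 9.26 and 14.8 to 17.1. No marker of these lists was under the pseudocount on every array of either group, and the part of these cells in the Adamts1, Adamts5 and Adamts9 values was not tested.

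At E15, with 2 arrays a group, only Adamts9 was called, where 1.5% of all genes rose and 0.594% fell (273 and 108 genes, 193 and 128 under quantile scaling). It had signals of 2.62 and 2.37 in Wnt4-null ovaries, against 1.28 and 1.20 in Wnt4+/- ovaries (1.0 ± 0.23, adjusted p = 0.0132), and the call was lost whichever of the 4 arrays was left out (0.0532 to 0.166). Adamts5 had 0.895 and 0.801 in Wnt4-null ovaries, against 0.402 and 0.118 in Wnt4+/- ovaries (1.90 ± 0.55, adjusted p = 0.0697). Adamts1 had 4.76 and 3.47, against 2.08 and 1.57 in Wnt4+/- ovaries (1.16 ± 0.35, adjusted p = 0.0766). Thbs2 was lower, with 2.0 and 1.44 in Wnt4-null ovaries against 3.63 and 3.35 in Wnt4+/- ovaries, and was not called (-1.03 ± 0.30, adjusted p = 0.068). Thbs1 had 1.57 and 1.28, against 0.567 and 0.801 in Wnt4+/- ovaries. Adamts8 had 0.311 to 0.336, against 0.145 to 0.182. Neither of these was called. Adamts8 was called with a pseudocount of 0.1% (adjusted p = 0.0473) or averaged probe sets (0.0304). In limma's main fit 6 of 8 members had an unadjusted p under 0.05, as did 12.6% of all genes. The median difference of the 8 members was 0.98, beside 0.04 over all genes. Stroma markers, of which 2 of 5 rose, had sums of 15.6 to 22.4 in Wnt4-null ovaries, against 7.76 to 9.03 in control ovaries. Fetal ovary supporting cell markers (1 of 6 fell) summed to 15.3 to 16.9 and 23.96 to 24.5. Macrophage markers (1 of 6 rose) summed to 2.67 to 3.07 and 1.396 to 1.57. Steroidogenic markers (1 of 5 rose) summed to 2.97 to 4.79 and 1.34 to 2.41. Endothelial markers (1 of 6 rose) summed to 5.601 to 7.85 and 4.88 to 5.39. Smooth muscle markers (0 of 6 called) summed to 6.396 to 6.64 and 3.503 to 3.78. The part of these cells was not tested. Between E15 and P0 the Wnt4-null effect changed for 0 of 8 members at an adjusted p under 0.05 (limma), and for 3 at an unadjusted p under 0.05, Thbs1, Thbs2 and Adamts5; 1.91% of all genes were called. Thbs2 came nearest, with a change of 1.41 ± 0.39 (adjusted p = 0.0547). The E15 mice were of another strain mixture with Wnt4+/- references, and the P0 Wnt4-null ovaries also lacked 1 Foxl2 copy. Stage cannot be told apart from these in the change.

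Testes and ovaries differed in 2 members at E13 and in 6 at P0. At E13 Thbs2 fell, with signals of 0.187, 0.239 and 0.176 in testes against 1.18, 1.68 and 2.08 in ovaries, a difference of -2.95 ± 0.25 (7.72-fold, adjusted p = 2.49e-11) that all 3 probe sets showed. Adamts9 rose, with 2.95, 2.90 and 2.93 in testes against 2.54, 1.90 and 1.23 in ovaries (0.69 ± 0.19, adjusted p = 0.0167). Its call was lost without ovary array 3 (0.41, adjusted p = 0.290) or any 1 of the testis arrays (0.0533 to 0.0556), while another of its probe sets separated the groups further, at 0.664, 0.839 and 0.845 in testes and 0.241, 0.166 and 0.118 in ovaries (2.14 ± 0.29). Of all genes, 3.3% rose and 4.84% fell. Beside the Sertoli and supporting cell sums given above, steroidogenic markers (5 of 5 rose) summed to 30.8 to 92.8 in E13 testes and 0.769 to 1.13 in E13 ovaries, and smooth muscle markers (3 of 6 rose) to 4.45 to 7.34 and 2.26 to 3.47, and their part was not tested. Thbs1, Adamts5 and Adamts16 were higher in testes and missed the threshold (adjusted p of 0.0977, 0.0897 and 0.0788).

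At P0, 4 members rose in testes and 2 fell, where 12.2% of all genes rose and 16.7% fell. Adamts5 had 7.89, 4.07 and 5.56 in testes, against 0.451, 0.125 and 0.252 in ovaries (4.47 ± 0.45, 22.2-fold, adjusted p = 1.75e-09). Thbs1 had 0.0548, 0.229 and 0.231 in testes, against 2.18, 1.32 and 2.28 in ovaries, and fell by 3.60 ± 0.40 on the log2 scale (adjusted p = 1.03e-08). Adamts1 had 5.87, 4.87 and 5.31 in testes, against 3.39, 1.95 and 1.64 in ovaries (1.26 ± 0.28, adjusted p = 0.000894). The 3 smaller calls were Adamts9 (0.61 ± 0.19, adjusted p = 0.0136), Adamts8 (0.62 ± 0.22, adjusted p = 0.032) and Adamts16 (-0.57 ± 0.19, adjusted p = 0.0271). The Adamts9 call was lost without testis array 3 or ovary array 1 (adjusted p of 0.0502 and 0.0576). That of Adamts8 was lost without any 1 testis array or ovary array 1 (0.0640 to 0.166), and that of Adamts16 without testis array 2 or ovary array 2 or 3 (0.0634 to 0.134). Under quantile scaling Adamts8 and Adamts16 were not called either (0.103 and 0.0839). Thbs2 no longer separated testes, at 2.17, 1.74 and 1.89, from ovaries, at 2.53, 1.59 and 2.25 (-0.12 ± 0.25, 95% interval -0.61 to 0.38). Stroma markers, of which 3 of 5 rose, summed to 22.01 to 32.4 in testes and 9.31 to 13.8 in ovaries, Sertoli cell markers (4 of 6 rose and 1 fell) to 18.8 to 27.5 and 2.08 to 2.48, and smooth muscle markers (3 of 6 rose) to 11.9 to 19.5 and 5.68 to 8.10. Steroidogenic markers (5 of 5 rose) summed to 19.5 to 28.2 in testes and 2.41 to 3.25 in ovaries, oocyte markers (6 of 6 fell) to 0.358 to 0.647 and 35.8 to 82.2, and fetal ovary supporting cell markers (5 of 6 fell) to 1.16 to 2.07 and 14.8 to 17.1. The part of these cells in the 6 calls was not tested.

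**Figure D5:**
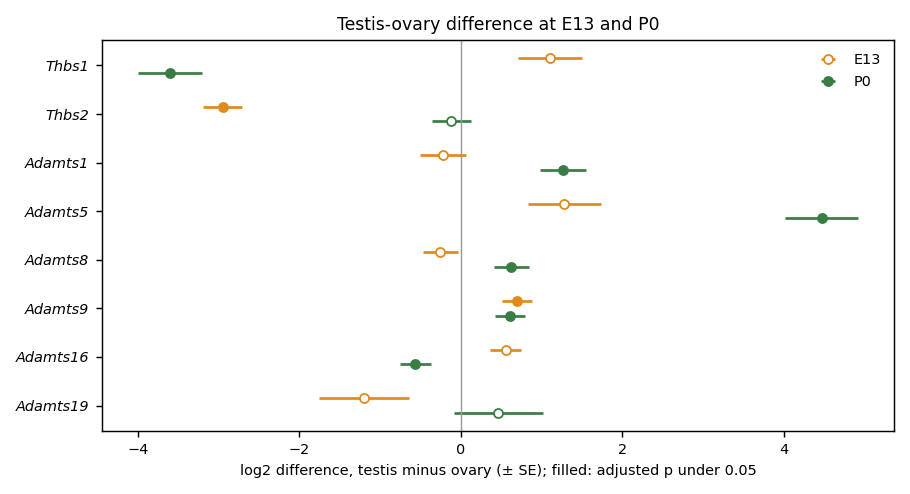
Log2 difference (± SE) between testes and ovaries for the 8 members read, at E13 (orange) and P0 (green), 3 arrays a group, filled where the adjusted p was under 0.05. Thbs1 lies at 1.10 at E13 and at -3.60 at P0, and Thbs2 at -2.95 and -0.12.

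The testis-ovary difference itself changed between E13 and P0 for 5 of 8 members, where 8.83% of all genes were called. The E13 ovaries were Foxl2+/- by their labels and the P0 testes Wnt4-null by the methods, so neither can be told apart from stage here. Thbs1 changed by -4.71 ± 0.56 (adjusted p = 6.69e-07) and Adamts16 by -1.13 ± 0.27 (0.00729), towards ovary. Adamts5 changed by 3.19 ± 0.64 (0.00118), Thbs2 by 2.83 ± 0.35 (1.13e-06) and Adamts1 by 1.48 ± 0.40 (0.0179), towards testis. Thbs1 and Thbs2 thus crossed, Thbs2 being the thrombospondin that set E13 ovaries apart and Thbs1 the one that set P0 ovaries apart. The Adamts1 call was lost without E13 testis array 3, E13 ovary array 1 or P0 ovary array 2 or 3 (adjusted p of 0.0516 to 0.0701). The Adamts16 change was not called when both probe sets were averaged (-0.84, adjusted p = 0.103).

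Within the ovary the 2 thrombospondins followed different courses. Between E13 and E16 Thbs1 rose by 2.43 ± 0.40 (adjusted p = 0.000106), Thbs2 by 1.31 ± 0.25 (0.000621) and Adamts16 by 0.83 ± 0.19 (0.00486), and 0 members fell, where 5.09% of all genes rose and 3.94% fell (925 and 716 genes, 769 and 937 under quantile scaling). By their labels the E13 ovaries were Foxl2+/- and the E16 ovaries had no mutation. Stage and Foxl2 copy number therefore cannot be told apart in any comparison between them. Smooth muscle markers (2 of 6 rose) summed to 3.94 to 4.48 at E16 and 2.26 to 3.47 at E13. Oocyte markers (2 of 6 rose and 1 fell) summed to 1.38 to 6.14 and 8.52 to 15.6. The part of these cells was not tested. Between E16 and P0 Thbs1 rose again, by 1.57 ± 0.40 (0.00326), and Thbs2 fell, with 2.53, 1.59 and 2.25 at P0 against 4.23, 4.65 and 3.22 at E16 (-0.93 ± 0.25, 0.0046), where 10.2% of all genes rose and 20.7% fell (1858 and 3756 genes, 2300 and 1851 under quantile scaling). Quantile scaling moved the median of all genes by 0.29 in this comparison, and both calls remained. Adamts8 was also called under it (0.89, limma, adjusted p = 0.00637). The other Thbs2 probe sets gave -2.08 ± 0.33, which was called, and -0.42 ± 0.29, which was not. Oocyte markers rose over the same interval, 6 of 6, with sums of 35.8 to 82.2 at P0 and 1.38 to 6.14 at E16. Smooth muscle markers (2 of 6 rose) summed to 5.68 to 8.10 and 3.94 to 4.48. Fetal ovary supporting cell markers (2 of 6 fell) summed to 14.8 to 17.1 and 16.2 to 18.5. Adrenal cortex markers (2 of 2 fell) summed to 0.0216 to 0.157 and 0.244 to 0.481. The part of these cells was not tested. Between E13 and P0 testes, 5 members rose and 0 fell, where 9.06% of all genes rose and 13.8% fell. These were Adamts5 (3.22 ± 0.45), Thbs2 (3.21 ± 0.25), Adamts19 (1.87 ± 0.55), Adamts8 (1.81 ± 0.22) and Adamts1 (0.88 ± 0.28), with adjusted p of 6.88e-12 to 0.0234. Smooth muscle markers (5 of 6 rose) summed to 11.9 to 19.5 at P0 and 4.45 to 7.34 at E13. Macrophage markers (3 of 6 rose) summed to 1.72 to 2.77 and 0.968 to 1.29. Stroma markers (2 of 5 rose) summed to 22.01 to 32.4 and 12.3 to 16.3. Oocyte markers (2 of 6 fell) summed to 0.358 to 0.647 at P0 and 17.2 to 17.9 at E13. Germ cell markers (2 of 4 fell) summed to 5.19 to 9.05 and 10.03 to 10.63. Red cell markers (2 of 4 fell) summed to 0.444 to 0.608 and 1.97 to 4.81. The part of these cells was not tested. The Adamts1 call was lost without E13 testis array 2 or 3 or P0 testis array 1 or 3 (0.0519 to 0.0968), and the Adamts19 call with the smaller pseudocount (adjusted p = 0.0600).

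In Kit mutant ovaries, where 4 germ cell markers summed to 0.195 to 1.06, against 12.8 to 15.6 in wild-type ovaries, Thbs2 and Adamts16 rose and 0 members fell, where 17.3% of all genes rose and 13.3% fell (3147 and 2420 genes, 2093 and 2673 under quantile scaling). Thbs2 had 3.10, 3.87 and 4.09 in Kit mutants, against 2.53, 1.59 and 2.25 in wild-type ovaries (0.81 ± 0.25, adjusted p = 0.0137). Adamts16 had 2.44, 1.89 and 1.54 in Kit mutants, against 1.17, 1.24 and 1.35 in wild-type ovaries (0.62 ± 0.19, adjusted p = 0.016). Fetal ovary supporting cell markers (3 of 6 rose) summed to 21.2 to 24.7 in Kit mutants and 14.8 to 17.1 in wild-type ovaries, endothelial markers (3 of 6 rose) to 6.70 to 8.85 and 4.25 to 5.71, stroma markers (2 of 5 rose) to 13.4 to 17.3 and 9.31 to 13.8, and oocyte markers (6 of 6 fell) to 2.08 to 27.9 and 35.8 to 82.2, and their part was not tested. The Thbs2 call was lost without wild-type array 2 (adjusted p = 0.110) or Kit mutant array 3 (0.0528), and the Adamts16 call without wild-type array 1 (0.0506) or Kit mutant array 1 (0.130). Thbs1 averaged 1.88 in Kit mutants and 1.93 in wild-type ovaries (-0.09 ± 0.40, 95% interval -0.89 to 0.72). The Kit mutants likewise carried 1 Foxl2 copy, with Foxl2 signals of 19.5, 32.6 and 23.4, against 16.8, 14.6 and 16.4 in wild-type ovaries.

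The order of the 15 groups differed from gene to gene. Thbs1 was highest in the P0 ovaries with Foxl2, whose means of 1.93, 1.88 and 1.496 overlapped with one another and with the E15 Wnt4-null ovaries, and lowest in E13 ovaries (0.113). Thbs2 was highest in E16 wild-type ovaries (4.03), next to heterozygous ovaries of that stage, Kit mutants and E15 controls, whose arrays overlapped in turn, and lowest in E13 testes (0.201), which were separate from the next group. Adamts8 had the 4 later Foxl2-null groups at the top, with overlapping means of 0.561 to 0.699. Adamts1 was highest in the Wnt4-null (7.66) and double null ovaries (7.24), separate from P0 testes (5.35), and Adamts5 in P0 testes (5.84) and double nulls (4.05), which overlapped. Adamts9 varied least, with a span of 1.24 on the log2 scale between its highest and lowest group, and Adamts5 most, with a span of 4.73.

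Over the 15 group means, the members most alike were Adamts1 and Adamts5 (r = 0.874), followed by Adamts5 and Adamts9 (0.792) and Adamts1 and Adamts9 (0.745). In RefSeq's gene table Adamts1 and Adamts5 lie on the same chromosome with 1 annotated gene between them, which is not protein-coding. Among all other genes, the pattern most like that of Thbs1 was that of Ramp1 (r = 0.879), a receptor activity modifying protein, and that of Thbs2 was closest to Cav1 (0.901), a coat protein of caveolae. Adamts1 was closest to Dock1 (0.956), followed by the steroidogenic enzyme genes Cyp21a1 (0.929) and Hsd17b1 (0.926). Adamts5 was closest to 1110064A23Rik (0.967) and Osr2 (0.954), a zinc finger transcription factor, Adamts9 to Stox2 (0.937), Adamts19 to Med13l (0.943), Adamts16 to Ntn4 (0.836), a netrin of basement membranes, and Adamts8 to Brk1 (0.835). These correlations describe 15 means that include mutants and testes, and carry no test.

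The relatives, receptors, substrates and cofactors of these genes, 36 read of 39 listed, were read beside the members. With loss of Foxl2, 1 was higher and 1 lower without overlap at E13, 3 and 3 at E16, 3 and 2 at P0, 4 and 3 in the Wnt4-null background and 5 and 1 in the Kit mutant background. Of all genes, 4.99% were higher and 6.16% lower at E13, 7.52% and 8.96% at E16 and 5.37% and 7.18% at P0. The shares were 10.4% and 7.47% in the Wnt4-null and 4.51% and 6.58% in the Kit mutant background. Nothing is read from these counts. Sdc4, the syndecan that can bind ADAMTS proteases at the cell surface, averaged 3.79 in Foxl2-null and 9.45 in wild-type ovaries at P0 (-1.32 ± 0.17), and was also lower without overlap at E16 (-1.03 ± 0.17) and E13 (-0.55 ± 0.17). Adamts15, another protease of the versican-cutting group, was higher without overlap at E13 (0.85 ± 0.34), E16 (0.82 ± 0.34) and P0 (0.64 ± 0.34), and Papln, an ADAMTS-like protein, at P0 (0.87 ± 0.25) and in the Kit mutant background (1.15 ± 0.25).

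In Wnt4-null ovaries at P0, where 7.07% of all genes rose and 9.87% fell, 11 of 36 rose and 2 fell. The median of the 36 was 0.52, beside -0.03 over all genes. Among those that rose were Adamtsl2 (4.09 ± 0.59, adjusted p = 4.96e-06), a matrix protein that binds fibrillin, Vcan (2.28 ± 0.41, 0.000122), the versican core protein, Adamts15 (1.76 ± 0.34, 0.000349), Adamts6 (1.56 ± 0.30, 0.000293) and the integrin subunit Itgav (1.11 ± 0.16, 6.85e-06). At E15, where 1.5% of all genes rose and 0.594% fell, 4 of 36 rose and 0 fell. These were Adamtsl2, Adamts6, Itgav and Cacna2d1, the last a calcium channel subunit that binds thrombospondins. In P0 testes, where 12.2% of all genes rose and 16.7% fell, 20 of 36 rose and 3 fell. All 7 listed substrates were higher, among them Vcan (2.09 ± 0.41) and Bcan (1.84 ± 0.33), and so were 5 of 7 thrombospondin receptors. Thbs4 (-1.09 ± 0.35), Sdc4 (-0.48 ± 0.17) and the convertase Furin (-0.69 ± 0.13) were lower. In E13 testes, where 3.3% of all genes rose and 4.84% fell, 4 of 36 rose and 2 fell. Sdc4 was higher in testes (1.48 ± 0.17) and Papln lower (-1.82 ± 0.25). In Kit mutants, where 17.3% of all genes rose and 13.3% fell, 9 of 36 rose and 1 fell, Thbs4 (-1.31 ± 0.35). In Foxl2 heterozygous ovaries, where 0.0055% of all genes rose and 0% fell, 0 of 36 were called. Between E16 and P0 ovaries, where 10.2% of all genes rose and 20.7% fell, 5 of 36 rose and 7 fell. Thbs4 was higher at P0 (1.63 ± 0.35) and Acan, the aggrecan core protein, lower (-1.82 ± 0.38). Between E13 and E16 ovaries, where 5.09% of all genes rose and 3.94% fell, 6 of 36 rose and 1 fell. Thbs3 was higher at E16 (1.85 ± 0.29).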

How the data were processed

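RNA of whole gonads, 1 mouse per array, was extracted, amplified linearly in a single round, labelled with biotin and hybridised to Affymetrix MOE430 v.2 arrays, so replicates are separate mice. The intensity values deposited by the authors had been summarised with plier and scaled so that all 43 arrays share 1 mean; the submitters' processing notes also name GCOS 1.3, with no role. Each signal is an intensity divided by this mean. No depth exists for arrays, and their number limits the precision.

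Of 45071 probe sets, the 64 that are array controls were dropped. By the platform annotation 34927 of the others name 1 gene, 930 several and 9150 none, and 34723 of the first matched RefSeq, with 0 symbols changed. One probe set annotated to both Pald1 and Thbs1 was left out. Values of log2(intensity + 1% of the mean) were fitted with limma 3.58.1 in R 4.3.3, with 15 group means over all arrays, an intensity trend and Benjamini-Hochberg adjustment over 45007 probe sets; differences are on that log2 scale, which understates those of dim genes. The authors' own testing program was not used here. The fit was tested on simulated data. Loss of Foxl2 was described in 5 comparisons, and 11 were tested, 2 of them changes of a difference between stages.

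The brightest probe set of each of the 8 members read is reported whether called or not, and the others where they bear on it. Companion genes are named where called, where their arrays do not overlap or as examples of a role. For each member the 1 to 3 genes of most similar pattern are named. These were sought among genes with a mean above the median of all probe sets. The members and all lists were chosen with earlier results of these data known. TATAAA was added to the motif search after the sequences were seen. Alternatives were other pseudocounts, quantile scaling, a filter on dim probe sets, only the arrays compared, the replicate number as a block, averaged probe sets and leaving out each array. Replicate numbers met the criterion for pairing (every same-numbered pair correlated over 0.1) only between Foxl2-null and control ovaries at E13, at 0.132 to 0.158, and in no tested comparison.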

Additional observations from a re-analysis of the deposited data

Results flagged for a closer look

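The difference between testes and ovaries changed from E13 to P0, by limma's interaction term, for 5 of the 8 members read: Thbs1 (-4.71 ± 0.56, adjusted p = 6.69e-07), Thbs2 (2.83 ± 0.35, 1.13e-06), Adamts5 (3.19 ± 0.64, 0.00118), Adamts1 (1.48 ± 0.40, 0.0179) and Adamts16 (-1.13 ± 0.27, 0.00729). A negative value is a change towards ovary and a positive one towards testis. For Thbs1 all 3 testis arrays were above all 3 ovary arrays at E13, and all 3 were below them at P0. The P0 testes lacked Wnt4 by the methods and the E13 testes did not, so stage and loss of Wnt4 cannot be told apart in these 5 values. By their labels the E13 ovaries were Foxl2+/- and the P0 ovaries had no mutation, so Foxl2 copy number cannot be told apart from stage either.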

How the results depend on the processing

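No called value of a member changed sign under the alternatives run; 46 values did change sign, 36 of them with single arrays left out, of which 0 were called with either sign and 0 were described values without overlap (largest size before 0.52, after 0.53). Among them were Thbs1 in Kit mutants (0.18 without Kit mutant array 1), Thbs2 in the double nulls (0.23 without double null array 1) and Thbs2 in P0 testes (0.02 without ovary array 1). Counts of members called moved by more than 1.5 times in 5 comparisons. For Wnt4-null ovaries at E15 (1 of 8) the count was 2 with a pseudocount of 0.1% of the mean, 0 with only the arrays compared, 5 with the replicate number as a block, 2 with averaged probe sets, and 0 to 1 with single arrays left out, where the lone array left in a group is assumed to vary like the other groups. For the change of the Wnt4-null effect (0) it was 1 with a pseudocount of 5%, 1 with quantile scaling, 1 with the replicate block and 0 to 1 with arrays left out. For testes at E13 (2) it was 1 with only the arrays compared and 1 to 3 with arrays left out. For Kit mutants (2) it was 1 with only the arrays compared, 0 with the replicate block, 1 with averaged probe sets and 1 to 2 with arrays left out. Between E16 and P0 ovaries (2) it was 4 with averaged probe sets. Members without overlap at loss of Foxl2 ranged over 3 to 6 at E13 and 4 to 7 in the Kit mutant background with arrays left out. Fewer arrays leave less room for overlap in any gene, and the matching share of all genes was not computed. The replicate numbers pair no samples in these tested comparisons; the block also ended the calls of Adamts9 in E13 testes, Adamts8 and Adamts16 in P0 testes and Adamts16 between E13 and E16 ovaries. Over the single members' tested values, 576 were unchanged in direction and call, 18 lost and 16 gained a call and 6 moved without a call; with arrays left out, 534, 33, 6 and 19. Averaging both Adamts16 probe sets gave differences at loss of Foxl2 of -0.29, -0.50, -0.38, -0.05 and -0.38, and the Adamts19 difference at E13 was -3.20 and -1.10 with the smaller and larger pseudocount. Causes were not tested. Quantile scaling moved the median of all genes by -0.10 in P0 testes, -0.13 in Wnt4-null ovaries at E15, -0.18 in Kit mutants, -0.21 between E13 and E16 ovaries, 0.29 between E16 and P0 ovaries and 0.15 in the change of the Wnt4-null effect (103 genes higher and 244 lower, 111 and 159 after it).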
